A study of Mus musculus with 12 samples.

Results

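Zinc finger genes named Zfp with a number form a large group of mouse transcription factor genes, and 103 of them were bright enough to be followed in macrophages grown from bone marrow. They were chosen by name and level. A gene qualified if its symbol was Zfp followed only by digits, Zfp36 excepted, and if its probe set had a mean of at least 6 log2 over the 12 arrays. Where a gene had several probe sets, the one with the highest mean stood for it. Of 156 numbered Zfp genes among 12393 genes measured, 103 met this level and 53 lay under it. Just inside the limit were Zfp101 at 6.04, Zfp810 at 6.08 and Zfp825 at 6.09 log2. Just outside it were Zfp605 at 5.99, Zfp142 at 5.97 and Zfp937 at 5.95 log2. The group was taken up because LPS lowered more of its genes than it raised, so the counts for LPS against no stimulus are a description and carry no test.

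Expression was measured with 1 Affymetrix array per sample and 2 arrays, called biological replicates by the labels, in each of 6 groups. The p50-/-IL10-/- cells lack p50, a subunit of the transcription factor NF-kB, together with interleukin 10 (IL-10), and the IL10-/- cells lack IL-10 only. Both genotypes are on the strain given as 129-SvEv-Tac, and all marrow was cultured for 5 days with 10% serum and 30% medium conditioned by L cells, which supplies the growth factor M-CSF. Cells of each genotype received 1 ng/ml bacterial lipopolysaccharide (LPS) with 0.3 ng/ml IL-10, or 1 ng/ml LPS alone, or no stimulus, and RNA was taken after 4 hours. Because no group could make its own IL-10, the comparison of LPS with IL-10 against LPS alone measures the added cytokine. The genotypes were taken from the labels and not checked on the arrays, and the sources used here do not say whether a genotype came from 1 or several animals. The p-values therefore measure the spread between these samples.

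Values are log2 levels after RMA, which gives all arrays a common distribution. A difference is given as log2 ± standard error (SE) with 2 arrays per group, and a gene is called when limma's adjusted p is under 0.05. All 9 macrophage markers were bright, with means of 9.31 to 14.05 log2. Of 8 neutrophil markers 7 were measured, at 6.80 to 10.74 log2, and their list mean was 8.54 to 8.77 on the arrays of p50-/-IL10-/- cells and 9.23 to 9.44 on those of IL10-/- cells. In bulk samples fewer cells of a type and less RNA per cell cannot be told apart. The 2 arrays of LPS-treated IL10-/- cells were the least alike, with a median absolute difference of 0.159 log2 over the numbered Zfp genes, against 0.088 to 0.102 in the other groups.

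As background, most numbered Zfp genes code for proteins with arrays of C2H2 zinc fingers, in which each finger holds a zinc ion and contacts a few bases of DNA. Many carry a KRAB domain, which recruits the co-repressor TRIM28 (KAP1) and, through it, the histone methyltransferase SETDB1, and such proteins are best known for silencing transposons and imprinted genes. A minority act elsewhere, in RNA binding, ribosome assembly or ubiquitin transfer. LPS acts on macrophages through Toll-like receptor 4 and NF-kB, and IL-10 restrains that response through STAT3.

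The promoters of 3 genes that LPS raised and of 3 that it lowered most in p50-/-IL10-/- cells are printed here because the change with LPS separates them. Each is the 250 bases before the annotated start in RefSeq on GRCm38.p6, read 5′ to 3′ on the gene's strand, and capitals mark a match to a motif searched other than the GC box. The first 3 belong to genes that LPS raised.
Zfp131, chr13:119790733-119790982, minus strand: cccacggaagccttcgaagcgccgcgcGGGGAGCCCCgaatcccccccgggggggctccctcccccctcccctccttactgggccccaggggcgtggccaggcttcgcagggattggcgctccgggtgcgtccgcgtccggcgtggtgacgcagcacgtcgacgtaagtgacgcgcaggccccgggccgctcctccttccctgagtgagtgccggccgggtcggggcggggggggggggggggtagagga
Zfp281, chr1:136624651-136624900, plus strand: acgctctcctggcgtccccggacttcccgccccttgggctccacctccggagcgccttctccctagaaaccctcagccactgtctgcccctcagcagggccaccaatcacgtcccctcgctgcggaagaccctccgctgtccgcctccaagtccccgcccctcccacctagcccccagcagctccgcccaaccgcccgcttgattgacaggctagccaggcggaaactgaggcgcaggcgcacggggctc
Zfp319, chr8:95331812-95332061, minus strand: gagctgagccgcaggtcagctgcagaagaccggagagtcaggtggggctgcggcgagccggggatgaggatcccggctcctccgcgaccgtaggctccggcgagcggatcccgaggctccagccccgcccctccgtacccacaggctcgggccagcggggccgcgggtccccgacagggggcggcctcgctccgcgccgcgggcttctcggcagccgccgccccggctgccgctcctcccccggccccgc
The next 3 belong to genes that LPS lowered.
Zfp472, chr17:32965581-32965830, plus strand: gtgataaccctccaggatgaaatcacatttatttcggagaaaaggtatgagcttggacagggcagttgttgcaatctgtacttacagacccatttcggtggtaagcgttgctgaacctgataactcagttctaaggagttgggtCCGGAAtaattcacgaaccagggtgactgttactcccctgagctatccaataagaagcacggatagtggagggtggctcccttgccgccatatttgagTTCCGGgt
Zfp30, chr7:29783718-29783967, plus strand: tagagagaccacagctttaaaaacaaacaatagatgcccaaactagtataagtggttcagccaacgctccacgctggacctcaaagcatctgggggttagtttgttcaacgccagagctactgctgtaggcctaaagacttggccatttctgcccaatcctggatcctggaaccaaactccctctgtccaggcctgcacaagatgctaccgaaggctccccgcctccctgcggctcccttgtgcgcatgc
Zfp120, chr2:150136679-150136928, minus strand: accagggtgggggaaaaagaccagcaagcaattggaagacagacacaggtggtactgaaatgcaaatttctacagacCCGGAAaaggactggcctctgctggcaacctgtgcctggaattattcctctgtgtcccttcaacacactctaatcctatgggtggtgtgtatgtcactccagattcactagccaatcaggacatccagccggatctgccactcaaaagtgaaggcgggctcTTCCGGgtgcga
The capitals in Zfp131 mark the NF-kB consensus, and those in Zfp472 and Zfp120 mark CCGGAA, the core of sites for ETS factors, read on either strand. The raised promoters held 29, 19 and 33 CpG pairs (Zfp131, Zfp281 and Zfp319) and the lowered ones 8, 7 and 5 (Zfp472, Zfp30 and Zfp120). Promoter entries existed for 82 of the 103 genes, 17 of them with several entries, of which the first listed was used. Their median was 13 CpG, against 6 over all 27025 promoters. For the 24 with an entry among genes called lower with LPS in both genotypes the median was 12.5 CpG and for 39 genes called in neither it was 13. CCGGAA was in 9 of those 24 (37.5%) and in 7 of those 39 (17.9%). These groups were formed by the LPS calls, and their difference was not tested.

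Motif counts over the numbered Zfp promoters stood apart from all promoters mainly for ETS and GC-box letters, given here as descriptions. CCGGAA occurred in 21 of 82 (25.6%), against 12.2% of all promoters, and GGGCGG, a GC box, in 46 of 82 (56.1%), against 32.9%. The NF-kB consensus occurred in 5 of 82 (6.1%), against 3.75%. The AP-1 motif TGANTCA occurred in 5 of 82 (6.1%), against 6.87%, and a motif like the interferon-stimulated response element in 2 of 82 (2.44%), against 3.04%. The cyclic AMP response element TGACGTCA was in 0 of 82, against 1.62%. All motifs were read on both strands, within this window only, and no motif contains another.

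Levels spanned a wide range. The means over the 12 arrays lay between 6.04 and 10.52 log2, with a median of 7.26, close to the median of 7.28 over all genes. The brightest was Zfp622 at 10.52, a ribosome assembly factor, followed by Zfp207 at 10.32, a spindle and kinetochore protein, and Zfp91 at 10.21, a ubiquitin ligase known to act on the NF-kB-inducing kinase NIK. Zfp148 followed at 10.03, a factor that binds GC-rich DNA, and Zfp106 at 9.67, an RNA-binding protein. The differences between the 6 groups were mostly small. The range of group means was under 0.5 log2 in 56 genes and at least 1 log2 in 19, with a median of 0.47. Only 1 gene, Zfp810, had a group mean under the highest of the arrays' lower quartiles, so the size of its change is uncertain.

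**Figure D1:**
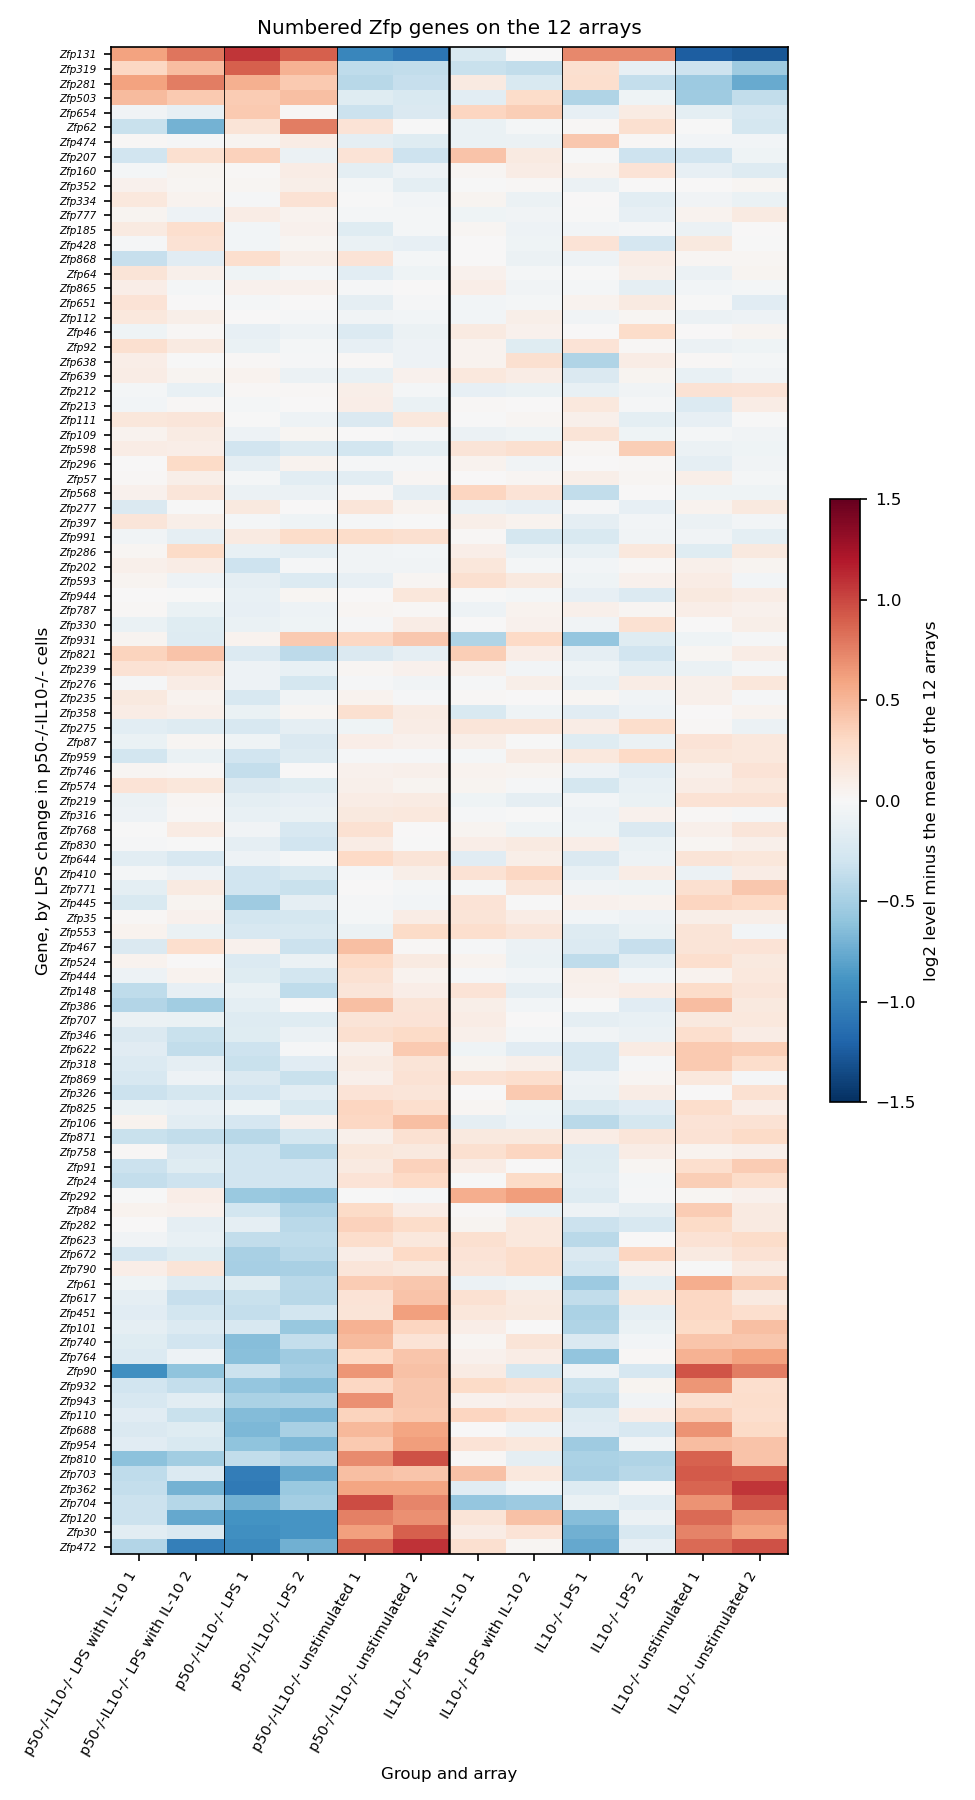
Levels of the 103 numbered Zfp genes (rows, ordered by the LPS difference in p50-/-IL10-/- cells) on the 12 arrays (columns, by group), as log2 level minus the gene's mean over all arrays. The median of these values over the rows was -0.147 to -0.04 on the arrays with LPS alone and 0.089 to 0.116 on the unstimulated ones. Rows are pale for the 56 genes whose group means range under 0.5 log2, and not all others are lowest with LPS alone. Zfp131, Zfp319 and Zfp281 at the top have higher group means with LPS than without stimulus in both genotypes.

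In LPS-treated p50-/-IL10-/- cells against unstimulated ones, 46 numbered Zfp genes were called lower and 5 higher, with a median difference of -0.25 log2. Over all genes 22.1% were called lower and 10.3% higher, 32.4% in all, with a median of -0.01. Among the 9001 genes with a mean of at least 6 log2 these shares were 29.2% and 12.8%, with a median of -0.08. In IL10-/- cells LPS gave 37 calls lower and 4 higher, with a median of -0.15, against 17.1% and 7.76% of all genes (24.8% in all) and 22.5% and 10.1% of the brighter ones. The median there was -0.01 over all genes and -0.06 over the brighter ones. Nothing is read from these shares, since this comparison chose the group. With each of the 4 arrays compared left out in turn, 30 of the 46 and 14 of the 37 lower genes were called every time. The count in IL10-/- cells depended on single arrays and was 22, 23 and 24 without LPS array 1, unstimulated array 1 and unstimulated array 2. The split also depended on scaling. Centring each array on its median added 0.13 log2 to the LPS difference of the median gene in p50-/-IL10-/- cells and 0.09 in IL10-/- cells, and the counts became 35 lower with 9 higher and 25 lower with 8 higher.

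**Figure D2:**
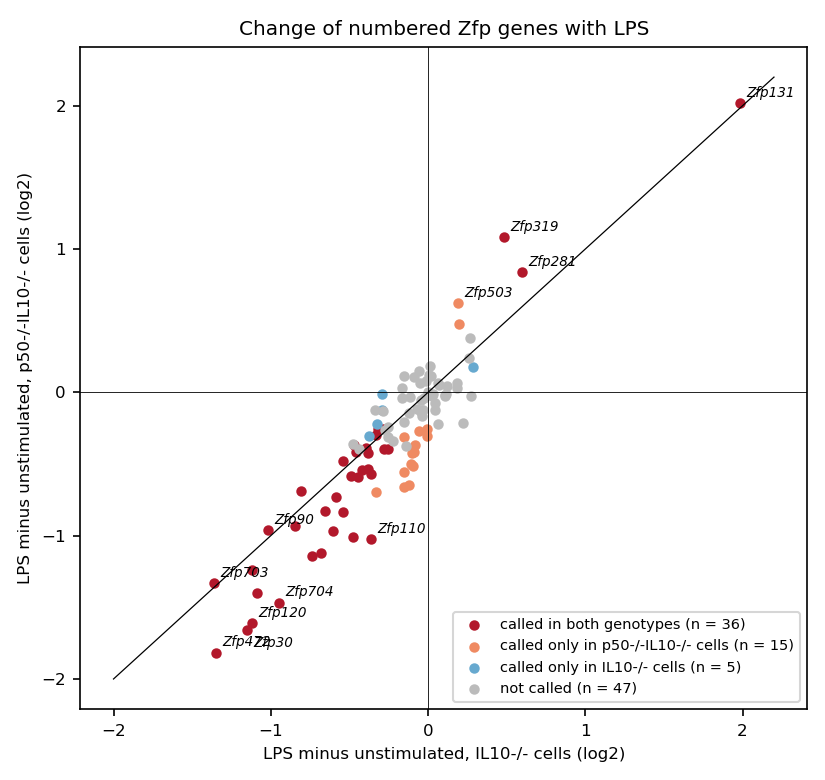
LPS minus unstimulated, in log2, in IL10-/- cells (horizontal) and p50-/-IL10-/- cells (vertical) for the 103 numbered Zfp genes, with colour for the calls and a line of equal change. Most points lie below 0 in both genotypes, Zfp131 stands alone at 2.02 in p50-/-IL10-/- and 1.98 in IL10-/- cells, and Zfp110 lies below the line at -1.03 in p50-/-IL10-/- cells and -0.36 in IL10-/- cells.

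The genotypes share no arrays, and their LPS calls overlapped. Called lower in both were 33 genes, which is 71.7% of those in p50-/-IL10-/- cells and 89.2% of those in IL10-/- cells. Of all genes 22.1% and 17.1% were called lower, and their overlap was not counted. The overlap is therefore not read as particular to the numbered Zfp genes. Zfp131, Zfp281 and Zfp319 were called higher in both, Zfp503 and Zfp654 in p50-/-IL10-/- cells alone, and Zfp160 in IL10-/- cells alone. Across the 103 genes the LPS differences of the genotypes had a Pearson r of 0.92, against 0.89 across all genes. Genes are not independent replicates, so this is a description.

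Zfp131 (gene ID 72465, chromosome 13), a member of the BTB zinc finger family of transcription factors, had the largest rise with LPS. It read 10.50 and 10.32 log2 on the LPS arrays of p50-/-IL10-/- cells, against 8.45 and 8.34 unstimulated. On the LPS arrays of IL10-/- cells it read 10.15 and 10.16, against 8.19 and 8.15 unstimulated. All LPS arrays lay above all unstimulated ones. The difference was 2.02 ± 0.10 log2, a 4.05-fold rise, in p50-/-IL10-/- cells and 1.98 ± 0.10, or 3.95-fold, in IL10-/- cells. It was called in every fit with 1 array left out.

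Zfp319 (gene ID 79233, chromosome 8) rose by 1.08 ± 0.14 log2 in p50-/-IL10-/- cells, where the LPS arrays read 9.51 and 9.13, against 8.23 and 8.24 unstimulated. The rise in IL10-/- cells was 0.48 ± 0.14, with 8.85 and 8.49 on the LPS arrays, against 8.30 and 8.07. The groups did not overlap in either genotype. The call in IL10-/- cells was lost without LPS array 1 (difference 0.30) and without unstimulated array 2 (0.37).

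Zfp281 (gene ID 226442, chromosome 1), a relative of Zfp148 that represses pluripotency genes in embryonic stem cells, rose by 0.84 ± 0.18 in p50-/-IL10-/- cells. Its LPS arrays read 9.62 and 9.48 there, against 8.68 and 8.74 unstimulated. The rise in IL10-/- cells was 0.60 ± 0.18, with 9.34 and 8.73 on the LPS arrays, against 8.54 and 8.33. The groups did not overlap, but the IL10-/- call was lost without LPS array 1 and without either unstimulated array. Both of its probe sets read higher with LPS in both genotypes, by 0.84 and 0.74 in p50-/-IL10-/- cells and by 0.60 and 0.61 in IL10-/- cells. Zfp148, its relative, was not called, at -0.38 ± 0.13 and -0.14 ± 0.13.

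Zfp503, a transcriptional repressor related to Zfp703, was called higher with LPS in p50-/-IL10-/- cells, by 0.63 ± 0.15, and read 0.19 ± 0.15 in IL10-/- cells. Zfp703 went the other way. The call for Zfp503 was lost without unstimulated array 2, and that for Zfp654, at 0.48 ± 0.12, without LPS array 1 or unstimulated array 1. Zfp160 rose by 0.29 ± 0.08 in IL10-/- cells, a call lost without any of 3 of the 4 arrays.

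Zfp472 (gene ID 224691, chromosome 17) had the largest fall in p50-/-IL10-/- cells. It read 5.69 and 5.92 on the LPS arrays, against 7.52 and 7.72 unstimulated, a difference of -1.82 ± 0.22 log2. The IL10-/- arrays read 5.87 and 6.52 with LPS, against 7.49 and 7.59, a difference of -1.35 ± 0.22. The LPS arrays lay below all unstimulated ones, and the 2 LPS arrays of IL10-/- cells were far apart.

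Zfp30 (gene ID 22693, chromosome 7), a KRAB zinc finger gene proposed as a regulator of neutrophil chemokines in mouse airways, fell by 1.66 ± 0.15 and 1.15 ± 0.15 log2 in p50-/-IL10-/- and IL10-/- cells. It read 6.69 and 6.73 with LPS, against 8.23 and 8.51, in p50-/-IL10-/- cells. The LPS arrays of IL10-/- cells read 6.89 and 7.38, against 8.36 and 8.20. Zfp120 (gene ID 104348, chromosome 2) read 5.97 and 5.98 with LPS, against 7.62 and 7.55, in p50-/-IL10-/- cells, and 6.22 and 6.78, against 7.71 and 7.53, in IL10-/- cells. Its differences were -1.61 ± 0.18 and -1.12 ± 0.18. For both genes the LPS and unstimulated arrays did not overlap.

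Zfp703 (gene ID 353310, chromosome 8), a transcriptional repressor known from breast cancer, was bright and fell in both genotypes. It read 8.07 and 8.35 with LPS, against 9.55 and 9.52, in p50-/-IL10-/- cells, and 8.62 and 8.69, against 10.03 and 10.00, in IL10-/- cells. The differences were -1.33 ± 0.12 and -1.36 ± 0.12, with 0.03 ± 0.17 between the genotypes. Zfp362 changed by -1.40 ± 0.16 and -1.09 ± 0.16, Zfp810 by -1.24 ± 0.14 and -1.12 ± 0.14, and Zfp90, a partner of the neuronal repressor REST, by -0.96 ± 0.15 and -1.02 ± 0.15. Zfp954 changed by -1.14 ± 0.14 and -0.74 ± 0.14 and Zfp688 by -1.12 ± 0.12 and -0.68 ± 0.12. Zfp764 and Zfp61, which ranked among the 10 largest falls in IL10-/- cells, changed by -0.93 ± 0.15 and -0.85 ± 0.15 (Zfp764) and by -0.69 ± 0.13 and -0.81 ± 0.13 (Zfp61). These genes, Zfp472, Zfp30, Zfp120 and Zfp704 were the 12 called lower in both genotypes in every fit with 1 array left out.

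Zfp704 showed how much the choice of probe set can matter. Its chosen probe set changed by -1.47 ± 0.12 in p50-/-IL10-/- and -0.94 ± 0.12 in IL10-/- cells, and its other probe set, nearly as bright, by -2.14 and -2.25. Among the genes called lower with LPS that had another probe set with a mean of at least 6 log2, all such probe sets had the same sign in 12 of 16 in p50-/-IL10-/- cells and in 8 of 10 in IL10-/- cells. With other probe sets of any level counted, the sign was the same in 13 of 22 and 10 of 18. Of the 11 genes whose probe set name ends in _x_at or _s_at, which marks probes that may also match other genes, 6 were called lower in each genotype. Of 5 whose name ends in _a_at, which marks several transcripts of 1 gene, 2 and 1 were. Of the 87 others 38 and 30 were.

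**Figure D3:**
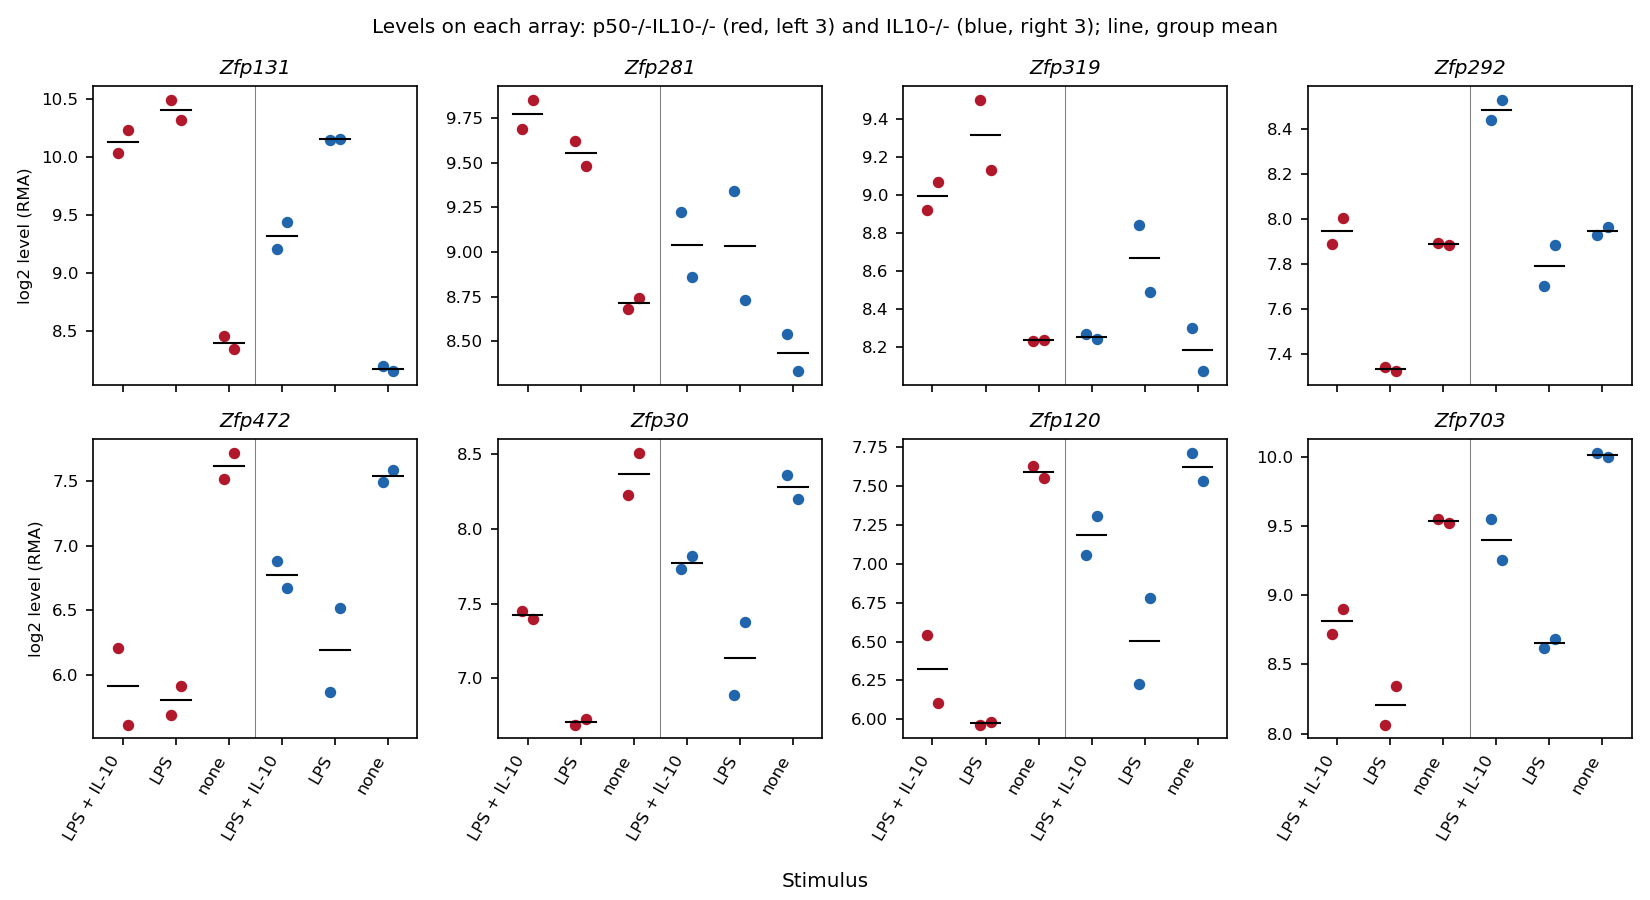
Level on each array, in log2, of 8 numbered Zfp genes, by stimulus within p50-/-IL10-/- cells (red, left) and IL10-/- cells (blue, right), with a line at each group mean. The axes start above 0. Zfp131, Zfp281 and Zfp319 are higher with LPS than without stimulus, the lower row is lower with LPS, and Zfp292 is higher on both arrays with LPS and IL-10 than on both with LPS alone in each genotype.

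The 3 role lists, drawn up from general knowledge with earlier results of these data known, cover 9, 7 and 11 of the 103 genes, and each held some that LPS lowered. Of all genes 22.1% were called lower and 10.3% higher in p50-/-IL10-/- cells, and 17.1% and 7.76% in IL10-/- cells. The listed genes all have a mean of at least 6 log2, and of all genes at that level 29.2% and 22.5% were called lower. Of the 103 numbered Zfp genes themselves 46 and 37 were called lower. No test set the lists against these figures. Of 9 genes with chromatin and silencing roles, LPS called 4 lower and 1 higher in p50-/-IL10-/- cells and 3 lower and 1 higher in IL10-/- cells. Zfp932, known for binding endogenous retroviruses, changed by -0.96 ± 0.14 and -0.60 ± 0.14, and Zfp644, a partner of the methyltransferase G9a, by -0.30 ± 0.10 and -0.33 ± 0.10. Zfp219 changed by -0.25 ± 0.07 and -0.29 ± 0.07, and Zfp410, which activates the remodeller gene Chd4, by -0.30 ± 0.10 and -0.01 ± 0.10, the last not called. The calls for Zfp219, Zfp410 and Zfp644 in p50-/-IL10-/- cells were lost without any 1 of the 4 arrays. The imprinting factors Zfp57 (-0.03 ± 0.09 and 0.03 ± 0.09) and Zfp445 (-0.31 ± 0.13 and -0.25 ± 0.13) were not called, nor were Zfp568, a repressor of a placental Igf2 transcript, or Zfp638, which recruits the HUSH silencing complex.

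Of 7 genes with activator or signalling roles, 4 were called lower with LPS in each genotype and 0 higher. Of all genes 22.1% and 17.1% were called lower, and of the brighter ones 29.2% and 22.5%. The 4 on the list were Zfp703, Zfp110 (an interactor of the p75 neurotrophin receptor), Zfp91 (-0.54 ± 0.10 and -0.38 ± 0.10) and Zfp318, which is needed for IgD expression in B cells (-0.42 ± 0.09 and -0.46 ± 0.09). Zfp703 is on this list although it is described above as a transcriptional repressor. Zfp64, reported to act with the NF-kB subunit p65 downstream of Toll-like receptors, read 0.07 ± 0.08 and 0.06 ± 0.08 and was not called. Zfp467 read -0.36 ± 0.18 and -0.47 ± 0.18. At unadjusted p under 0.05, limma gave 62 of the 103 genes in p50-/-IL10-/- cells, 5 higher and 57 lower, and 49 in IL10-/- cells, 7 higher and 42 lower. No share of all genes was counted at that threshold.

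Of 11 genes with roles outside DNA binding, 5 were called lower in p50-/-IL10-/- cells and 3 in IL10-/- cells. The shares beside them are the same 22.1% and 17.1% of all genes and 29.2% and 22.5% of the brighter ones. The SUMO ligase gene Zfp451 changed by -0.73 ± 0.14 and -0.59 ± 0.14, Zfp106 by -0.48 ± 0.12 and -0.54 ± 0.12, and the double-stranded RNA-binding Zfp346 by -0.40 ± 0.08 and -0.25 ± 0.08. Zfp326, of the DBIRD complex that couples elongation to splicing, changed by -0.42 ± 0.13 and Zfp830 by -0.27 ± 0.09 in p50-/-IL10-/- cells, and neither was called in IL10-/- cells. The call for Zfp326 was lost without any 1 of the 4 arrays, as was that for Zfp346 in IL10-/- cells. The brightest gene, Zfp622, read -0.40 ± 0.15 and -0.44 ± 0.15 and was not called. Zfp207, Zfp593, Zfp598 (a ubiquitin ligase for stalled ribosomes), Zfp185 and Zfp330 were not called in either genotype.

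Genes on a list of KRAB co-repressors and other chromatin factors, such as Dnmt1, Daxx and Morc3, moved in both directions. Of 28 measured, LPS called 13 lower and 3 higher in p50-/-IL10-/- cells and 9 lower and 2 higher in IL10-/- cells. The medians were -0.25 and -0.19, against -0.01 over all genes in both genotypes, of which 22.1% and 17.1% were called lower and 10.3% and 7.76% higher. Over the genes with a mean of at least 6 log2 the medians were -0.08 and -0.06. Of these genes 29.2% and 22.5% were called lower and 12.8% and 10.1% higher. Trim28 read 9.16 and 9.34 with LPS, against 10.12 and 10.14 unstimulated, in p50-/-IL10-/- cells and 9.67 and 9.85, against 10.38 and 10.42, in IL10-/- cells, or -0.88 ± 0.09 and -0.64 ± 0.09 as differences. Setdb1 changed by -0.79 ± 0.12 and -0.53 ± 0.12, and the DNA methyltransferase gene Dnmt1 by -1.36 ± 0.10 and -1.22 ± 0.10. Atf7ip, the partner of SETDB1, changed by -1.33 ± 0.11 and -0.15 ± 0.11, the second not called. Daxx, a histone chaperone and interferon-stimulated gene, rose by 2.68 ± 0.23 and 2.28 ± 0.23, and Morc3, a silencing ATPase, by 0.96 ± 0.08 and 0.63 ± 0.08.

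Other zinc finger families gave other counts, with no test of the difference. Over all genes 22.1% were called lower and 10.3% higher in p50-/-IL10-/- cells, and 17.1% and 7.76% in IL10-/- cells. Of 11 Zkscan and Zscan genes, 6 were called lower and 0 higher with LPS in each genotype. Of 23 Zbtb genes, 6 were lower in each genotype, with 2 higher in p50-/-IL10-/- and 1 in IL10-/- cells. Of 14 Klf genes, 3 were lower in each, with 4 and 2 higher. The 53 dimmer numbered Zfp genes gave 16 and 11 calls lower and 0 higher. The shares of all genes are not matched to their level. Genes with a mean of at least 6 log2 were called lower in 29.2% and 22.5%, more than all genes. The shares for genes under that level are therefore below 22.1% and 17.1%, and were not counted. By level, 10 of 26 members with a mean of at least 8 log2, 20 of 36 at 7 to 8 and 16 of 41 at 6 to 7 were called lower in p50-/-IL10-/- cells.

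Numbered Zfp genes often lie side by side in the genome, and 14 pairs of the 103 genes were direct neighbours among protein-coding genes of the RefSeq table. Of all 103 genes 46 were called lower with LPS in p50-/-IL10-/- cells, beside 22.1% of all genes measured. Whether neighbours changed together was not tested. In p50-/-IL10-/- cells LPS lowered both genes of 4 pairs, 1 gene of 5 and neither of 5. Zfp84, Zfp30 and Zfp790 are consecutive on chromosome 7 and were all called lower there, by -0.57 ± 0.10, -1.66 ± 0.15 and -0.66 ± 0.11. In IL10-/- cells Zfp84 and Zfp30 were called, at -0.36 ± 0.10 and -1.15 ± 0.15, and Zfp790 was not, at -0.16. The probe set of Zfp84 carries a name for shared probes.

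Added IL-10 moved fewer of these genes, mostly upwards. In p50-/-IL10-/- cells LPS with IL-10 against LPS alone called 10 numbered Zfp genes higher and 2 lower, or 9.71% and 1.94%, against 3.7% and 2.87% of all genes (6.57% in all) and 4.71% and 3.76% of genes with a mean of at least 6 log2. In IL10-/- cells it called 5 higher and 1 lower, or 4.85% and 0.971%, against 3.35% and 2.82% of all genes (6.17% in all) and 4.49% and 3.79% of the brighter ones. Nothing is read from these shares either, since the LPS arrays by which the group was chosen are the reference here. The median difference was 0.13 log2 in both genotypes, against 0.05 and 0.01 over all genes and 0.04 and 0.02 over the brighter ones. The LPS arrays enter both this comparison and the one against no stimulus, so the 2 sets of values are not independent.

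These counts rested on few arrays. In p50-/-IL10-/- cells the count of 12 calls became 5 and 2 without arrays 1 and 2 of LPS with IL-10, and 3 and 4 without LPS arrays 1 and 2. In IL10-/- cells the count of 6 became 3 without array 1 of LPS with IL-10, 4 without its array 2, 3 without LPS array 1 and 22 without LPS array 2, of which 19 were higher. With centred arrays the split was 6 higher with 2 lower in p50-/-IL10-/- cells and 4 higher with 2 lower in IL10-/- cells. Calls that held in every fit with 1 array left out were those of Zfp292 and Zfp821 in p50-/-IL10-/- cells and of Zfp292, Zfp703 and Zfp131 in IL10-/- cells. These 5 calls were also kept with only the 2 groups compared in the fit, which kept 7 of the 12 and 3 of the 6.

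Zfp292 (gene ID 30046, chromosome 4), whose rat relative was described as an activator of the growth hormone gene, was the steadiest IL-10 gene of the group. It read 7.89 and 8.0 log2 with LPS and IL-10, against 7.34 and 7.33 with LPS, in p50-/-IL10-/- cells, and 8.44 and 8.53, against 7.70 and 7.88, in IL10-/- cells. No arrays overlapped. The rise was 0.61 ± 0.08 (limma adjusted p 0.00176) and 0.69 ± 0.08 (adjusted p 0.000654). All 4 of its probe sets were higher with IL-10, by 0.36 to 0.63 in p50-/-IL10-/- cells and 0.65 to 0.71 in IL10-/- cells. Relative to unstimulated cells, LPS with IL-10 left it at 0.06 ± 0.08 in p50-/-IL10-/- cells and 0.54 ± 0.08 in IL10-/- cells.

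Zfp703 rose with IL-10 by 0.60 ± 0.12 in p50-/-IL10-/- cells (limma adjusted p 0.0139) and 0.75 ± 0.12 in IL10-/- cells (adjusted p 0.00354). It read 8.72 and 8.90 with LPS and IL-10, against 8.07 and 8.35 with LPS, in p50-/-IL10-/- cells, and 9.55 and 9.26, against 8.62 and 8.69, in IL10-/- cells. The groups did not overlap, and both levels stayed below those of unstimulated cells. The call in p50-/-IL10-/- cells was lost without LPS array 1 (adjusted p 0.12) and without array 2 of LPS with IL-10 (0.119).

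Zfp30 rose with IL-10 by 0.72 ± 0.15 (limma adjusted p 0.0179) and 0.64 ± 0.15 (adjusted p 0.0261), reading 7.45 and 7.40, against 6.69 and 6.73, in p50-/-IL10-/- cells and 7.73 and 7.82, against 6.89 and 7.38, in IL10-/- cells. The arrays did not overlap. The first call was lost without any 1 of the 4 arrays (highest adjusted p 0.109, without LPS array 1), and the second without LPS array 1 (0.149) and either array of LPS with IL-10 (0.0917 and 0.153). Its neighbours Zfp790 and Zfp84 rose in p50-/-IL10-/- cells by 0.64 ± 0.11 and 0.43 ± 0.10 and were not called in IL10-/- cells, at 0.32 and 0.06. The call for Zfp790 was lost without LPS array 1 and without array 2 of LPS with IL-10, and that for Zfp84 without any 1 of the 4 arrays. The last was also so for Zfp35, Zfp110, Zfp239 and Zfp574, called in p50-/-IL10-/- cells at 0.30 to 0.41.

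Zfp821 rose with IL-10 by 0.68 ± 0.11 (limma adjusted p 0.00439) and 0.45 ± 0.11 (adjusted p 0.0303). It read 7.58 and 7.67, against 7.04 and 6.86, in p50-/-IL10-/- cells and 7.62 and 7.36, against 7.11 and 6.96, in IL10-/- cells, with no overlap. The call in IL10-/- cells was lost without array 1 of LPS with IL-10 (adjusted p 0.226) and without either LPS array (0.0547 and 0.102). Zfp568 was called in IL10-/- cells only, at 0.45 ± 0.12 (adjusted p 0.0498), and lost the call without LPS array 1 (0.284) and without either array of LPS with IL-10 (0.255 and 0.118).

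Zfp131 fell with IL-10 in IL10-/- cells, where LPS with IL-10 gave 9.21 and 9.44 log2, against 10.15 and 10.16 with LPS. The difference was -0.83 ± 0.10 (limma adjusted p 0.000813), and the groups did not overlap. In p50-/-IL10-/- cells it read 10.04 and 10.23, against 10.50 and 10.32, and was not called. The genotype difference of the IL-10 effect was 0.55 ± 0.15 (adjusted p 0.245), so the effects were not shown to differ. Zfp62 was called lower in p50-/-IL10-/- cells, at 7.16 and 6.79, against 7.69 and 8.27 (difference -1.0 ± 0.19, adjusted p 0.011), and was not called in IL10-/- cells, at -0.19. That call was lost without array 2 of LPS with IL-10 (0.104) and without LPS array 2 (0.0585). Zfp868 was called at -0.43 ± 0.11 (adjusted p 0.0437) and was lost without any 1 of the 4 arrays (highest 0.235, without LPS array 1).

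Set against unstimulated cells, LPS with IL-10 gave 38 calls lower and 9 higher in p50-/-IL10-/- cells and 12 lower and 5 higher in IL10-/- cells. All genes gave 21.2% and 16.7% (37.9% in all) in the first case and 12.5% and 6.94% (19.5% in all) in the second, and the brighter genes 27.9% and 17.5%, and 16.3% and 9.33%. These counts share the unstimulated arrays with the LPS comparison and are a description. With centred arrays they became 34 lower with 14 higher and 10 lower with 10 higher. The count of 17 in IL10-/- cells was 8 and 9 without unstimulated arrays 1 and 2 and 11 and 10 without arrays 1 and 2 of LPS with IL-10, and the count of 47 in p50-/-IL10-/- cells was 31 without unstimulated array 2. Zfp472 stayed low in p50-/-IL10-/- cells, at -1.71 ± 0.22, and read -0.76 ± 0.22 in IL10-/- cells, a call lost without any 1 of the 4 arrays. Zfp120 read -1.26 ± 0.18 and -0.44 ± 0.18, Zfp810 -1.40 ± 0.14 and -0.71 ± 0.14, Zfp704 -1.23 ± 0.12 and -1.38 ± 0.12, and Zfp90 -1.31 ± 0.15 and -0.92 ± 0.15. Zfp131 remained up by 1.74 ± 0.10 and 1.15 ± 0.10 and Zfp281 by 1.06 ± 0.18 and 0.60 ± 0.18, the last a call lost without array 1 of LPS with IL-10 (log2 difference 0.42) or either unstimulated array (0.71 and 0.50).

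**Figure D4:**
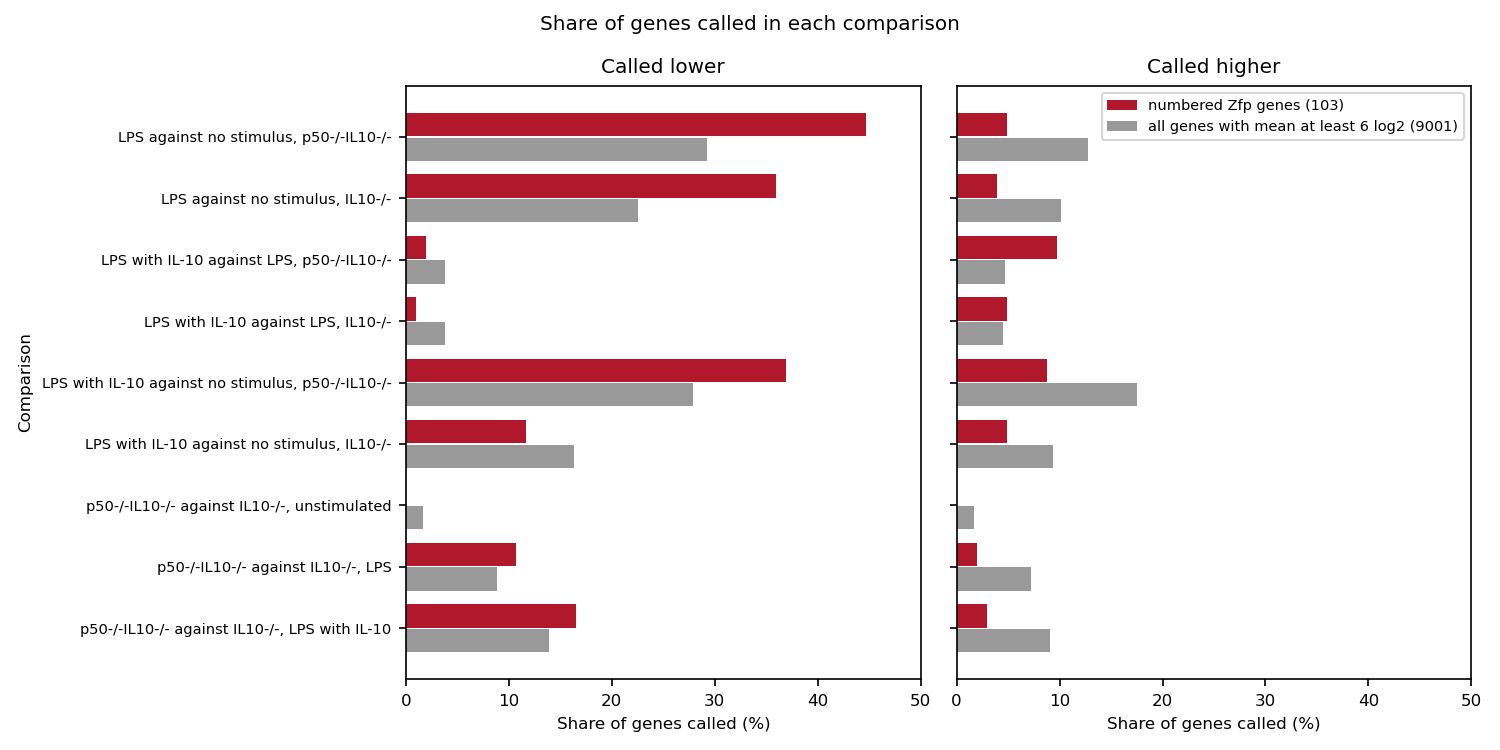
Share of genes called lower (left) and higher (right), in percent, in each of 9 comparisons, for the 103 numbered Zfp genes (red) and for all 9001 genes with a mean of at least 6 log2 (grey). In LPS against no stimulus 44.7% of the numbered Zfp genes were called lower in p50-/-IL10-/- cells and 35.9% in IL10-/- cells. For IL-10 against LPS the red bars exceed the grey mainly for higher calls in p50-/-IL10-/- cells. The LPS arrays enter both kinds of comparison and the choice of the group, so nothing is read from these differences.

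The loss of p50 was compared at each stimulus. In unstimulated cells limma called 0 of the 103 genes between p50-/-IL10-/- and IL10-/- cells. Of all genes it called 1.26% higher and 1.31% lower (2.57% in all), and of the brighter ones 1.68% and 1.61%. At unadjusted p under 0.05 it gave 8 of the 103, 2 higher and 6 lower, with no share of all genes counted at that threshold. The smallest adjusted p was 0.0669, for Zfp703, at 9.55 and 9.52 log2 in p50-/-IL10-/- cells, against 10.03 and 10.00 in IL10-/- cells. With LPS 2 genes were higher and 11 lower, or 1.94% and 10.7%, against 5.66% and 6.72% of all genes (12.4% in all) and 7.23% and 8.88% of the brighter ones. With LPS and IL-10 3 were higher and 17 lower, or 2.91% and 16.5%, against 7.58% and 10.4% of all genes (18.0% in all) and 9.07% and 13.9% of the brighter ones. In both LPS conditions the share called lower lay above that of the brighter genes, and the share called higher below it. The LPS arrays by which the group was chosen enter the comparison with LPS alone, so nothing is read from these shares.

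Markers of neutrophils moved with genotype too, and their part in these results was not tested. Of 7 measured, 5 were called lower in p50-/-IL10-/- cells without stimulus, 6 given LPS and 5 given both agents, and all 7 had means of at least 6.80 log2. The stromal markers Col1a1, Col1a2, Col3a1, Sparc, Dcn and Pdgfrb had a list mean of 5.97 to 6.34 on the p50-/-IL10-/- arrays, against 6.53 to 7.13 on the IL10-/- arrays. Of these 6 markers, 2 were called lower without stimulus, 3 lower and 1 higher given LPS, and 2 lower given both agents, with medians of -0.84, -0.76 and -0.53 log2. Their part was not tested either. The counts also rested on single arrays. The 13 calls with LPS became 3 and 10 when array 1 or 2 of p50-/-IL10-/- cells was left out, and 23 and 6 for arrays 1 and 2 of IL10-/- cells. The 20 calls with LPS and IL-10 became 8 and 7 when array 1 or 2 of p50-/-IL10-/- cells was left out, and 9 and 8 for arrays 1 and 2 of IL10-/- cells.

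The calls that held in every fit with 1 array left out were Zfp292 and Zfp871 in both LPS conditions, Zfp110 with LPS and Zfp131 with LPS and IL-10. With only the 2 groups compared in the fit, 17 of the 20 calls with LPS and IL-10 were kept, those of Zfp292, Zfp871 and Zfp131 among them, but of the 13 with LPS alone Zfp110 was the 1 kept (limma adjusted p 0.0488), while Zfp871 (0.0563) and Zfp292 (0.0712) lost theirs. Zfp292 differed by -0.46 ± 0.08 with LPS (limma adjusted p 0.0053) and -0.54 ± 0.08 with LPS and IL-10 (adjusted p 0.00177). Zfp871 (gene ID 208292, chromosome 17) read 8.49 and 8.45 log2 under both agents in p50-/-IL10-/- cells, against 8.96 and 8.97 in IL10-/- cells. With LPS it read 8.40 and 8.55, against 8.94 and 9.0. The groups did not overlap, with differences of -0.50 ± 0.08 (adjusted p 0.00309) and -0.49 ± 0.08 (adjusted p 0.00418). Without stimulus its arrays were closer, at 8.89 and 9.06, against 9.04 and 9.11.

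Zfp110 (gene ID 65020, chromosome 7) had the lowest p for a genotype difference in the LPS response. With LPS it read 7.30 and 7.29 in p50-/-IL10-/- cells, against 7.76 and 8.06 in IL10-/- cells, and the groups did not overlap. The difference was -0.61 ± 0.10 (limma adjusted p 0.00402). Its LPS response was -1.03 ± 0.10 in p50-/-IL10-/- cells and -0.36 ± 0.10 in IL10-/- cells, the second a call lost without 3 of the 4 arrays in turn, and the difference of -0.66 ± 0.15 had an adjusted p of 0.073. Its probe set carries a name for shared probes. In the probe set without such a name the genotype difference with LPS was -0.18 (adjusted p 0.702).

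Zfp131 was higher in p50-/-IL10-/- cells with LPS and IL-10, by 0.81 ± 0.10 (limma adjusted p 0.000621), as were Zfp319 by 0.74 ± 0.14 (adjusted p 0.00614) and Zfp281 by 0.73 ± 0.18 (adjusted p 0.0197). These 3 are also the genes that LPS raised in both genotypes. Zfp319 read 8.92 and 9.07, against 8.27 and 8.24, and Zfp281 9.69 and 9.86, against 9.22 and 8.86. The groups did not overlap, but the call for Zfp319 was lost without array 2 of p50-/-IL10-/- cells (0.0544) and that for Zfp281 without either p50-/-IL10-/- array (0.0595 and 0.118) and without IL10-/- array 2 (0.155). With LPS alone Zfp319 and Zfp503 were higher by 0.65 ± 0.14 (adjusted p 0.014) and 0.67 ± 0.15 (adjusted p 0.0146), calls lost for Zfp319 without p50-/-IL10-/- array 1 (0.121) or IL10-/- array 2 (0.0965), and for Zfp503 without either p50-/-IL10-/- array (0.0684 and 0.0766) or IL10-/- array 1 (0.0682).

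Among the lower genes, Zfp472 and Zfp120 differed most with LPS and IL-10. Zfp472 read 6.20 and 5.61 in p50-/-IL10-/- cells, against 6.88 and 6.67 in IL10-/- cells (difference -0.87 ± 0.22, limma adjusted p 0.0213). Zfp120 read 6.54 and 6.10, against 7.06 and 7.31 (difference -0.86 ± 0.18, adjusted p 0.00964). The groups did not overlap, and both calls were lost without array 2 of p50-/-IL10-/- cells (0.159 for Zfp472 and 0.0847 for Zfp120) and without array 2 of IL10-/- cells (0.0629 and 0.0824). That for Zfp472 was also lost without array 1 of IL10-/- cells (0.101). Zfp90 differed by -0.69 ± 0.15 (adjusted p 0.0111), Zfp703 by -0.59 ± 0.12 (adjusted p 0.00705) and Zfp932 by -0.58 ± 0.14 (adjusted p 0.0182). The first 2 of these calls were lost without array 1 of p50-/-IL10-/- cells (0.0922 for Zfp90 and 0.0614 for Zfp703) or of IL10-/- cells (0.075 and 0.051), and that of Zfp932 without any 1 of the 4 arrays (highest 0.101). With LPS alone Zfp362 differed by -0.70 ± 0.16 (adjusted p 0.0187), Zfp672 by -0.50 ± 0.14 (adjusted p 0.0475) and Zfp704 by -0.48 ± 0.12 (adjusted p 0.0209). All 3 calls were lost without p50-/-IL10-/- array 1 (0.143, 0.213 and 0.155 for Zfp362, Zfp672 and Zfp704) and without IL10-/- array 2 (0.101, 0.23 and 0.0637). That for Zfp672 was also lost without p50-/-IL10-/- array 2 (0.113), and that for Zfp704 without IL10-/- array 1 (0.0644).

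The difference between genotypes in the response itself was tested as an interaction. For the LPS response limma called 0 of the 103 genes. Of all genes it called 0.734% higher and 0.452% lower (1.19% in all), and of the brighter ones 0.9% and 0.622%. At unadjusted p under 0.05 it gave 18 of the 103, 3 higher and 15 lower. No share of all genes was counted at that threshold. Without LPS array 1 of IL10-/- cells 6 were called, all lower, namely Zfp110, Zfp672, Zfp30, Zfp943, Zfp790 and Zfp954, at -0.81 to -0.64. For the IL-10 effect limma called 0 of the 103 genes. Of all genes it called 0.0968% higher and 0.0403% lower (0.137% in all), and of the brighter ones 0.122% and 0.0444%. At unadjusted p under 0.05 it gave 9 of the 103, 4 higher and 5 lower, again with no share of all genes counted. The smallest adjusted p among the 103 was 0.207, for Zfp704. That value rested on 1 of its 2 probe sets, in which IL-10 gave 0.24 and -0.44 log2 in p50-/-IL10-/- and IL10-/- cells, against -0.07 and 0.06 in the other. Across the 103 genes the IL-10 effects of the genotypes had a Pearson r of 0.46, against 0.60 across all genes, given as a description.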

How the data were processed

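Total RNA of mouse bone marrow macrophages was measured on 12 arrays. The authors deposited log2 values for 22690 probe sets in 1 table. RMA made them, per the submitters' processing notes, which also name limma with no role. RMA versions, its options and the genome build of the probe annotation are not given in the sources used here. RMA gives the arrays a common distribution, so a change in total RNA is not visible, and it compresses changes of dim genes. Precision is limited by the number of arrays.

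From the deposited values, 64 control probe sets, 691 probe sets with several symbols and 1555 with no gene were left out. The remaining 20380 gave 12393 genes, with the probe set of highest mean standing for each. Gene identifiers of 20351 probe sets matched the gene table, and 0 symbols changed. A mean per group was fitted to all genes over all 12 arrays with limma 3.58.1 in R 4.3.3 (6 residual degrees of freedom, prior worth 4.47), without a replicate block. Across 11 contrasts p-values were two-sided and adjusted by Benjamini-Hochberg over all genes of a contrast. The median SE of a difference was 0.105 log2 over the numbered Zfp genes. The code of the fit was checked on simulated data with known changes in a single group and independent noise between arrays. Such data hold no deviations shared between arrays, so the check covers the code only. Counts and figures were made with Python 3.11.15, pandas 2.3.3, numpy 2.4.6 and matplotlib 3.10.9.

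The members and the role lists were chosen with earlier results of these data known. Named by rule were the called members with the largest changes, up to 10 in each direction with LPS and up to 5 in other contrasts. The rule also named all role-list members, the 5 brightest and the 3 genes on either side of the level limit. Genes on the list of co-repressors and other chromatin factors were named from the 3 largest called changes each way, with Trim28 and Setdb1. Zfp35, Zfp84, Zfp239, Zfp574, Zfp943 and the probe-set examples were named after their values were seen. Alternatives covered scaling, probe set, leaving out probe sets with names ending _x_at, _s_at or _a_at, level limit, filter, variance trend, groups in the fit, a replicate block and each array left out.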

Additional observations from a re-analysis of the deposited data

How the results depend on the processing

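Each comparison was refitted with 1 choice changed at a time. Of the 77 pairs of a named gene and a comparison, 0 reversed direction under any alternative and 45 kept their call under all of them. The counts of calls were less steady. With 1 array left out in turn, the count with LPS against no stimulus was 38 to 45 in p50-/-IL10-/- cells and 22 to 42 in IL10-/- cells. With LPS and IL-10 against LPS it was 2 to 5 and 3 to 22, and with LPS and IL-10 against no stimulus 31 to 36 and 8 to 11. Between genotypes it was 0 to 0 without stimulus, 3 to 23 with LPS and 7 to 9 with LPS and IL-10, and for the genotype difference 0 to 6 for the LPS response and 0 to 0 for the IL-10 effect. With only the groups compared in the fit, the count was 22 for LPS against no stimulus in IL10-/- cells (41 with all groups), 3 for IL-10 against LPS in IL10-/- cells (6), 1 between genotypes without stimulus (0) and 1 with LPS (13). That fit has fewer residual degrees of freedom. With a level limit of 7 log2, which leaves 62 genes, LPS with IL-10 against no stimulus gave 31 in p50-/-IL10-/- cells (47) and the genotype comparison with LPS and IL-10 gave 13 (20). Samples of different groups share replicate numbers, but the labels state no shared culture. Deviations of same-numbered arrays correlated positively in all 10 pairs of groups without p50-/-IL10-/- cells given LPS with IL-10 (0.169 to 0.595) and negatively in all 5 pairs with that group (-0.492 to -0.173). Of the 15 pairs 10 were over 0.1. The numbers were not used to pair the samples in the main fit because no label says that they mark a shared culture. These signs do not decide whether samples were made together, which was not tested. The replicate block takes the numbers as labelled in every group. The replicate block moved the count of LPS calls in p50-/-IL10-/- cells to 53, against 51 without it, left 41 in IL10-/- cells, gave 10 and 5 for the IL-10 effect, against 12 and 6, and gave 13 between genotypes with LPS, as without it, and 23 with LPS and IL-10, against 20.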
